A study of Marmota monax with 20 samples.

Results

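The pancreas of the Eastern woodchuck (Marmota monax) was represented by 1 of the 20 RNA-seq libraries of a survey of untreated tissues. The library was chosen by its tissue label alone, so no measured value entered the choice. It came from the animal F9150, which also gave a liver, a kidney, a spleen and the thymus library. The remaining 19 libraries comprised 6 livers, 5 kidneys, 5 spleens and single libraries of heart, lung and thymus, taken from 6 adult animals of both sexes that tested negative for the woodchuck hepatitis virus. Heart and lung came from F6849. No library had a treatment or an altered genotype, and the sources used here do not say which region of the pancreas was taken. Since pancreas, heart, lung and thymus had 1 library each, no test was made. The spread between animals is known for liver, kidney and spleen, given below as the SD over animals, and is unknown for pancreas.

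Most of the pancreas is exocrine tissue, in which acinar cells make and secrete digestive proenzymes and enzymes that split proteins, fats, starch and nucleic acids. Acinar cells are known for devoting much of their protein synthesis, and much of their messenger RNA, to a small number of secreted products. Ducts carry the secretion to the gut, and islets release hormones such as insulin and glucagon. The count table gives identifiers of the Monax4B annotation and pairs them with no gene names, and 0 of the 30973 identifiers were found in the RefSeq gene table. The label pancreas was therefore not checked against acinar, duct or islet markers, genes are given by identifier with no function, and no sequence is shown. In a whole tissue, a lower level through fewer cells of a type and through less RNA per cell cannot be told apart.

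The pancreas library held 83879613 read counts, within the range of the other libraries of 59487004 to 140252555. Few genes held a large part of them. In pancreas 10 genes held 50% of the counts, against 78 to 124 in the liver libraries (105.5 ± 16.5, n = 6), 546 in heart, 646 in thymus, 1033 to 1210 in the spleen libraries, 1242 in lung and 1247 to 1334 in the kidney libraries. For 90% of the counts 2615 genes were needed in pancreas, 3426.5 ± 80.1 in liver, 5523 in heart, 5589 in thymus, 6613 ± 98.9 in spleen (n = 5), 6904 ± 128 in kidney (n = 5) and 7208 in lung. Pancreas lay below each of the 19 other libraries on both measures.

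The 10 most abundant genes of pancreas held 50.2% of its counts. In liver the 10 most abundant genes of each library held 23.1% ± 4.21, in heart 15.7%, in thymus 9.37%, in spleen 8.08% ± 1.59, in lung 6.01% and in kidney 4.39% to 6.48%. The first gene alone did not set pancreas apart. It held 13.5%, less than the 15.1% of the first gene of the liver of F6852, and 2 libraries in all had a higher value. The genes that followed it did: those of rank 2, 3 and 4 held 11.4%, 7.64% and 6.27%, so that 4 genes held 38.8%, and those of rank 5 and 6 held 2.85% and 2.06%. The 95% Wilson intervals of these shares reach at most 0.0107 percentage points to either side and treat each count as independent. PCR copies of a molecule are counted as well, and both reads of a pair may each have been counted. The intervals are therefore too narrow even for counting error, and they leave out the spread between animals. A share of counts also depends on transcript length, which the table does not give.

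The effective number of genes, the exponential of the Shannon entropy of the shares, was 224 in pancreas. It was 978 ± 180 in liver (723 to 1151), 2610.5 in heart, 3360 in thymus, 4684 ± 321 in spleen, 5456 in lung and 5634 ± 238 in kidney. The inverse Simpson index, which weights the leading genes more, was 22.6 in pancreas and 103 ± 58.4 in liver, with 38.2 as the lowest value of any other library.

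**Figure D1:**
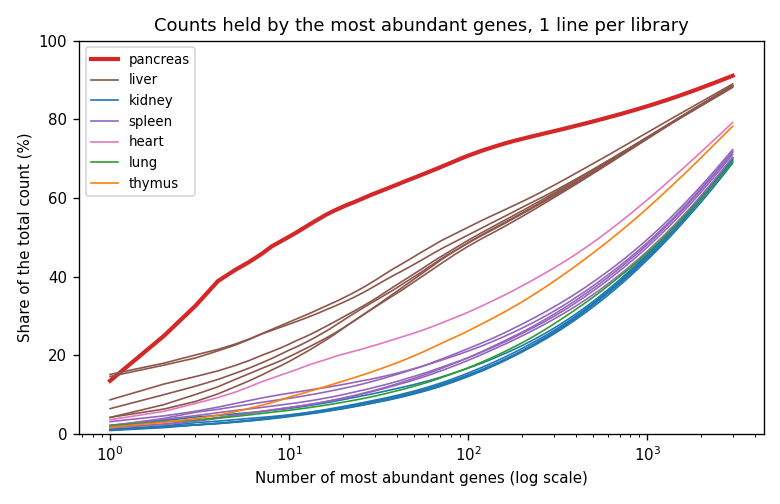
Share of a library's total count, in percent, held by its most abundant genes, against the number of those genes on a log scale, with 1 line for each of the 20 libraries. From 10 genes (50.2%) to 1000 genes (83.3%) the pancreas line lies above every other line, while at the first gene (13.5%) 2 liver lines start higher.

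Pancreas did not stand apart in how many genes were found. It had 17581 genes with at least 10 counts, against 17659 ± 394 in liver, 18627 in thymus, 18762 in heart, 19447 ± 303 in spleen, 19911 ± 415 in kidney and 20820 in lung. When every library was thinned to the same 59487004 counts, 16921 genes were left in pancreas, just above the 16852 of the highest liver and below the 18372 of thymus and the 18409 of heart.

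Levels are given as scaled CPM, counts per 1000000 of the library's total times its TMM factor, a composition factor computed so that most genes have like levels in all libraries. The TMM factor of pancreas was 0.464, below the 0.520 to 1.55 of the other libraries. Scaled CPM of all genes therefore sum to 2153836 in pancreas, and a share of counts cannot be read from a scaled CPM. A gene was called high where it had at least 10 scaled CPM in pancreas and at least 8 times as much as in each of the other 19 libraries, where counts below 3 were raised to 3. The rule took in 119 of the 11514 genes compared, or 1.03%. The same rule gave 243 genes in heart, 130 in lung and 13 in thymus.

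The 119 genes held 57.4% of the pancreas counts and 0.0178% to 0.0601% of those of any other library. That share was 0.0250% ± 0.0063 in liver, 0.0451% ± 0.00799 in kidney, 0.0519% ± 0.00852 in spleen, 0.0502% in lung, 0.0232% in heart and 0.0221% in thymus. Summed over the genes, their level was 1236977 scaled CPM in pancreas and 193 to 666 elsewhere, and the liver of F6852 was the highest. Almost all of their counts lay in the most abundant members: 16 genes of at least 10000 scaled CPM held 54.1% of the counts of the library, 18 genes of 1000 to 10000 held 2.78%, 30 genes of 100 to 1000 held 0.438% and 55 genes of 10 to 100 held 0.0913%. Of the 10 most abundant genes of pancreas 9 were high, of the 20 most abundant 16, of the 100 most abundant 31 and of the 200 most abundant 39.

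With that floor, the ratios to the highest other library ran from 8.09 to 263158, with a median of 92.8. For 10 of the genes the floor set the ratio, which is then a lower bound. They lay between 8 and 16 for 28 genes, between 16 and 100 for 33, between 100 and 1000 for 31, between 1000 and 10000 for 8, and at 10000 or more for 19, of which 5 were such bounds. The rule had no gap at its limit: the closest gene outside it had a ratio of 7.93, and 74 genes of at least 10 scaled CPM had ratios of 4 to 8. Of the 119 genes, 53 stayed under 1 scaled CPM in each other library, 16 had at most 10 counts in each and 2 had 0 counts in all 19.

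The most abundant gene, Monax4B017256, had 11333715 counts in pancreas (291024 scaled CPM). Its count was 0 in 5 of the 6 livers and 36 in the liver of M4046, 9 to 138 in the kidneys, 4 to 221 in the spleens, 2 in heart, 22 in lung and 32 in thymus. Pancreas was 140788 times the highest of these, the spleen of M4046. The gene second in abundance, Monax4B040361, had 9589402 counts in pancreas (246234 scaled CPM) and at most 184 in another library, again the spleen of M4046, with 88 in thymus and 10 in heart. Its ratio was 143074. Neither gene came near pancreas in any other tissue, and both were counted at a low number in most other libraries.

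With the floor, the ratios were highest for a pair of less abundant genes. Monax4B040279 had 887500 counts in pancreas (22789 scaled CPM, 1.06% of the counts) and 0 to 8 elsewhere, with 8 in the kidney of M4091, 6 in thymus, 2 in lung and 0 in heart, which gave a ratio of 263158. Monax4B002563 had 467104 counts in pancreas (11994 scaled CPM) and 0 in all 6 livers, in heart and in thymus. It had at most 6 in a kidney, at most 4 in a spleen and 4 in lung. Its ratio of 178105 is a lower bound set by the floor, so the order of the pair is not known.

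**Figure D2:**
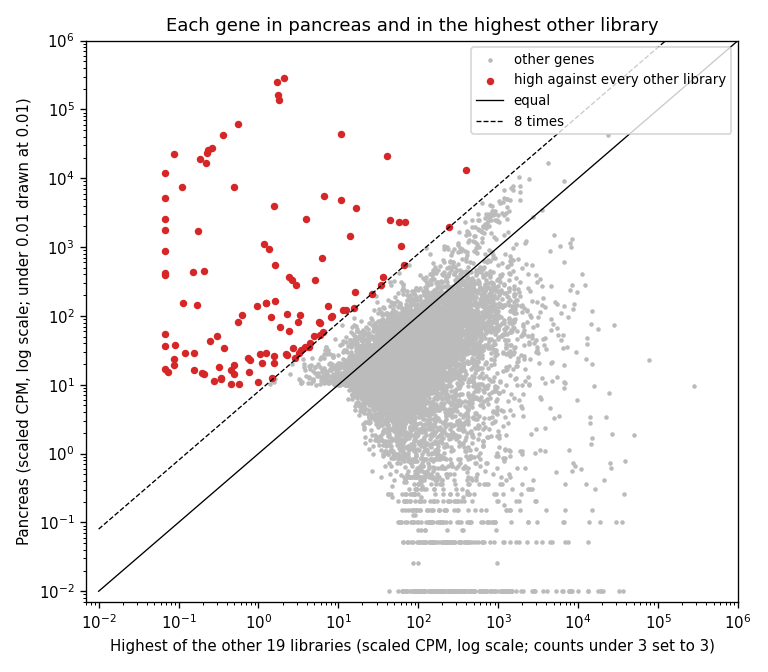
Level of each of the 11514 genes compared in pancreas against that in whichever other library was highest, both in scaled CPM on log scales, with lines at equal levels and at 8 times. The 119 high genes (red) include a column of points above 10000 scaled CPM in pancreas that lie at or under about 2 scaled CPM elsewhere, while the cloud of other genes (grey) follows the line of equal levels and reaches down to genes at 0 counts in pancreas.

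The low counts of pancreas genes elsewhere were not spread evenly. For the 4 most abundant genes together they were 344 in the kidney of M4091 and 32 to 100 in the other kidneys, 721 in the spleen of M4046 and 34 to 387 in the other spleens, 118 in the liver of M4046 and 0 to 4 in the other livers, 162 in thymus, 92 in lung and 12 in heart. By the column names, the kidney of M4091 and the spleen of M4046 were the 2 libraries with the lane number of pancreas, 6. The liver of M4046 had another lane number. The kidney of M4091 and the spleen of M4046 were also the next highest library for 14 and 11 of the 119 genes, where lung was for 17 and the spleen of M4091 for 10. The flow cell is not given, so a shared lane is not known, and the part of a lane in these counts was not tested.

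Against single tissues the numbers were several times larger. With the same limits and the nearest library of the tissue as the reference, 453 genes were high and 769 low against liver (4.22% and 7.17% of 10727), 298 and 452 against kidney (2.78% and 4.22% of 10723), and 516 and 754 against spleen (4.69% and 6.86% of 10996). Against the single libraries they were 682 and 840 for heart (6.24% and 7.69% of 10924), 441 and 873 for lung (4.02% and 7.95% of 10981) and 739 and 693 for thymus (6.96% and 6.53% of 10613). A tissue with 5 or 6 libraries has to be passed in each of them, so these counts are not comparable with those against 1 library. Kidney had the fewest in both directions of the 3 tissues with replicates. These comparisons share the pancreas library.

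The split between higher and lower genes depended on the scaling. With library sizes alone, the genes high and low were 291 and 751 against liver, 116 and 1288 against kidney, 229 and 1650 against spleen, 310 and 1626 against heart, 157 and 2366 against lung and 307 and 1710 against thymus. Against all other libraries they were 73 and 37 in place of 119 and 2.

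Beyond the 119 genes, those high against a tissue missed the limit of 8 times against at least 1 other tissue. A gene was high against exactly 1 tissue in 368 cases, against 2 in 213, against 3 in 186, against 4 in 147 and against 5 in 95. Monax4B040971 had 97808 counts in pancreas (2511 scaled CPM) and at most 8 in any liver. It was at 215 ± 195 scaled CPM in kidney (72.5 to 555), 60.1 in lung and 12.8 in thymus, so that pancreas was only 4.52 times the highest other library. Monax4B007074 had 33898 counts in pancreas (870 scaled CPM), at most 2 in a kidney, at most 4 in a spleen and 0 in thymus, and was at 103 ± 124 scaled CPM in liver (21.3 to 335). Monax4B009199 had 15848 counts in pancreas (407 scaled CPM) and 2 each in heart and lung, and was higher in liver, at 883 ± 289 scaled CPM, and lower in kidney, at 179 ± 105. Monax4B034529 had 9018 counts in pancreas (232 scaled CPM) and at most 2 in a spleen, with 691 ± 284 scaled CPM in liver and 12.5 ± 4.86 in kidney.

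Few genes were shared by pancreas and a single other tissue. These were genes of at least 10 scaled CPM in pancreas and in every library of that tissue, the lower of them at least 8 times every remaining library. Of the 11514 genes compared, they were 16 with liver, 8 with lung, 5 with kidney, 5 with heart, 0 with spleen and 0 with thymus. A tissue with 5 or 6 libraries has to pass in each of them, so its number is not comparable with that of a single library. Genes common to spleen and thymus cannot pass, since each is a remaining tissue for the other. The 16 genes shared with liver held 0.759% of the pancreas counts, 2 of them were also among the 119, and 12 lay below every liver library. The most abundant of the 16, also among the 119, alone held 0.607%. Monax4B040998 was inside the range of liver, at 117 scaled CPM in pancreas (4550 counts) and 58.4 to 149 in liver (99.0 ± 36.0), with at most 4 counts in any other library. Monax4B003043 was lower in pancreas, at 17.7 scaled CPM (688 counts) against 300.2 ± 54.1 in liver (193 to 341), with at most 10 counts elsewhere.

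The genes shared with kidney held 0.0453% of the pancreas counts. Monax4B025906 was at 429 scaled CPM in pancreas (16720 counts), inside the range of kidney of 267 to 616 (458 ± 160). Its next tissue was spleen, at 0.663 to 3.61, and it was at 0 counts in heart and thymus. Monax4B011130 was at 104 scaled CPM in pancreas and 385 ± 343 in kidney, where the highest library reached 995. The genes shared with lung held 0.134%. Of these Monax4B045982 was at 2516 scaled CPM in pancreas (97974 counts) and 44.5 in lung, with 58 counts in 1 liver, that of M4046, and at most 2 in every other library. Monax4B012841 was at 11.8 scaled CPM in pancreas and 12.9 in lung. The genes shared with heart held 0.0730%, with Monax4B025634 at 1470 scaled CPM in pancreas and 13.9 in heart, and Monax4B038737 at 40.7 in pancreas and 317 in heart.

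Few genes were low in pancreas against all other libraries. A gene was called low where the mean of the 6 other tissue means was at least 10 scaled CPM and the lowest other library was at least 8 times pancreas, with pancreas counts under 3 set to 3. This held for 2 genes (0.0174%), and for 26 when the other libraries of F9150, thymus among them, were left out. The same rule gave 5 genes in heart, 0 in lung and 4 in thymus, so a small number is not particular to pancreas. Monax4B032226 had 26 counts in pancreas (0.668 scaled CPM) and was at 30.8 ± 4.68 scaled CPM in liver, 30.4 ± 10.6 in kidney, 69.3 ± 25.8 in spleen, 28.1 in heart, 13.9 in lung and 9.48 in thymus, 14.2 times pancreas at the lowest. Monax4B007931 had 2 counts in pancreas. It was at 239 ± 66.2 scaled CPM in spleen, 20.4 ± 6.55 in liver, 9.80 in lung, 4.25 ± 3.64 in kidney, with 130 counts in heart and 114 in thymus. Its lowest library was the kidney of M4091, with 72 counts and 0.779 scaled CPM, 10.1 times pancreas with the floor. The other kidneys were at 1.22 to 9.15 scaled CPM.

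Of the 6002 genes with at least 10 scaled CPM in each of the other 19 libraries, 0 had 0 counts in pancreas, 0 were under 1 scaled CPM and 67 were under 10. The lowest of them, relative to its lowest other library, was at 0.231 times that library. Of the 14791 genes with at least 10 counts in each other library, a looser limit, 32 had 0 counts in pancreas and 313 had under 10. Of the 13447 genes with a mean of at least 10 scaled CPM in 1 or more other tissues, 1600 were under 1 scaled CPM in pancreas and 374 had 0 counts. A count of 0 allows up to 3 counts of the 83879613 if counts are independent, and more if both reads of a pair were counted. Of the 374 genes, 114 had their highest tissue in liver, 87 in spleen, 66 in heart, 63 in kidney, 32 in lung and 12 in thymus. With the minimum of 10 scaled CPM applied to each tissue, 2280 genes were low against exactly 1 tissue, 628 against 2, 209 against 3, 42 against 4, 10 against 5 and 0 against all 6.

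The summed level of the genes low against a tissue was largest for liver and smallest for kidney. Summed over the 769 genes low against liver, the level was 1091011 scaled CPM in liver and 7464 in pancreas. The sums were 352365 in heart against 7094 in pancreas, 239888 in thymus against 11153, 112472 in spleen against 2077, 108737 in lung against 4129 and 71939 in kidney against 1590.1. Against liver, Monax4B010686 and Monax4B032564 had 0 counts in pancreas and were at 23434 ± 10502 and 21181 ± 7924 scaled CPM in liver. With 3 counts as the floor of the pancreas library, pancreas was at least 153315-fold and 124446-fold lower than the lowest liver for these genes. Against kidney, Monax4B000602 had 0 counts in pancreas and was at 697 ± 306 scaled CPM in kidney, at least 5646-fold higher in the lowest kidney. Monax4B027868 had 2 counts in pancreas, with 1048 ± 610 scaled CPM in kidney and 2231 ± 449 in liver.

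Against spleen, Monax4B014392 was at 2.77 scaled CPM in pancreas (108 counts) and at 8267 ± 3986 in spleen. It was also at 1616 in lung, 480 ± 436 in kidney, 303 in heart, 204 ± 84.8 in liver and 10.1 in thymus, so pancreas was the lowest of the 7 tissues and thymus the nearest. Monax4B007931, given above, was the other gene named for spleen. Against heart, Monax4B014099 had 4 counts in pancreas and was at 35091 scaled CPM in heart, and Monax4B043103 had 0 counts and was at 19549. Against lung, Monax4B011714 had 2 counts in pancreas and was at 13371 scaled CPM in lung, and Monax4B022615 had 0 counts and was at 2914. Against thymus, Monax4B011824 had 0 counts in pancreas and was at 7668 scaled CPM in thymus and 1006 in lung, and Monax4B032674 had 0 counts and was at 310.2 in thymus and 1339 ± 1365 in liver.

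Genes restricted to another tissue were chosen without the pancreas library, as genes with a mean of at least 10 scaled CPM in the tissue and every library of it at least 8 times every library of the remaining tissues. Their median level in pancreas, as a share of that in their own tissue, was 0.0831% for 319 liver genes, 0.203% for 17 thymus genes, 0.296% for 265 heart genes, 0.299% for 139 kidney genes, 0.375% for 81 spleen genes and 0.764% for 143 lung genes. With a limit of 4 times it was 1.51% for lung, 3.44% for thymus and 0.344% to 0.838% for the other 4 tissues. At 0 counts in pancreas were 82 of the liver, 42 of the kidney, 58 of the heart, 25 of the lung, 8 of the spleen and 5 of the thymus genes. Only a few genes reached pancreas levels at or above their own tissue, 5 for liver, 5 for lung, 3 for kidney, 2 for heart and 0 for spleen and thymus.

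The sums of these lists set pancreas beside the remaining tissues. The choice held every remaining library low for each gene and set no limit on pancreas, which favours higher sums in pancreas. The spleen genes summed to 113 scaled CPM in pancreas, inside the 72.8 to 790.4 of the remaining libraries and far below the 12299 to 28458 of spleen. The thymus genes summed to 470 in pancreas, 9258 in thymus and 82.5 to 990.2 in the remaining libraries. The liver genes summed to 18882 in pancreas, of which 3492 remained without the 2 that were also among the 119, against 1673 to 4654 in the remaining libraries. The heart genes came to 2948, and to 1478 without 1 such gene, against 838 to 1726. For kidney and lung the pancreas sums, which the choice favours, stayed above the remaining libraries also without such genes. The kidney genes came to 22621, and to 1334 without 2 genes, against 65.1 to 145, and the lung genes to 2990, and to 474 without 1 gene, against 41.9 to 244.

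Removing the 119 genes left 35706409 counts in pancreas and changed its place among the libraries. Only these genes were removed. The other tissues kept theirs, by the same rule 243 in heart, 130 in lung and 13 in thymus. The places given here therefore set pancreas without its own high genes beside tissues that kept theirs. The TMM factor of pancreas went from 0.464 to 1.04, between heart and thymus, while that of liver went from 0.536 ± 0.0165 to 0.514 ± 0.0157. Removing the 10 most abundant genes instead gave 0.891. The 10 most abundant of the remaining genes held 13.5% of the remaining counts, below liver (23.1% ± 4.21) and heart (15.7%) and above thymus (9.37%). The 100 most abundant held 37.3%, against 49.6% ± 1.77 in liver and 31.0% in heart. For 50% of the remaining counts 367 genes were needed, and for 90% 5427, close to the 5518 of heart and the 5584 of thymus. The effective number of genes was 2267, below the 2608 of heart and above the 977 ± 180 of liver. Thinned to the same remaining counts, 17462 genes had at least 10 counts in pancreas, next to 17467 in thymus and 17492 in heart and above the 15717 ± 155 of liver.

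**Figure D3:**
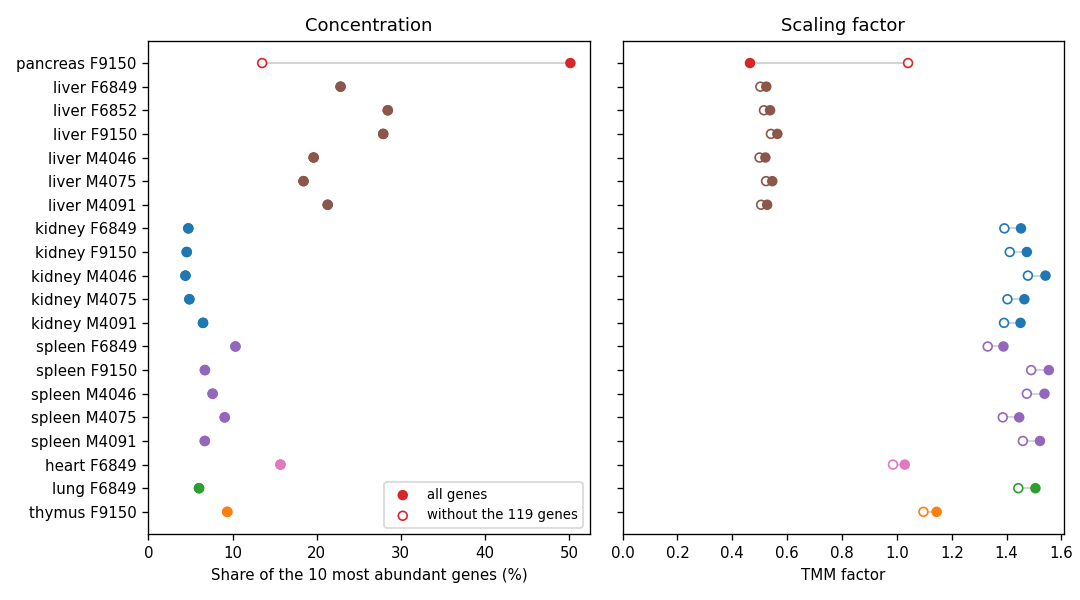
Share of counts held by the 10 most abundant genes of each library (left, percent) and TMM factor (right, no unit), 1 row per library, with all genes (filled) and without the 119 genes high in pancreas (open; in the left panel open points lie under filled ones in all libraries but pancreas). Pancreas moves from 50.2% to 13.5% and from 0.464 to 1.04, and no other library moves as far. The choice of the genes fixes this, as they hold at most 0.0601% of the counts of any other library.

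The leading gene among those left was Monax4B042242, with 1636529 counts in pancreas, 4.58% of the remaining counts. It was abundant in every tissue, at rank 1 to 22 of the remaining genes of the other libraries. Its level was 42022 scaled CPM in pancreas, 14450 ± 4699 in liver, 11289 in thymus, 9725 ± 1210 in spleen, 7248 in lung, 6851 ± 922 in kidney and 3965 in heart, so that pancreas was 1.78 times the highest other library, the liver of F9150. Of the 100 most abundant remaining genes of pancreas, 39 to 60 were also among the 100 most abundant of a spleen, 21 to 39 of a kidney, 24 of lung, 14 of heart, 9 of thymus and 4 to 7 of a liver.

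On the log2 scale pancreas had its highest mean r with kidney, and the removal of the 119 genes did not change the order. Pearson's r of log2 scaled CPM across 23602 genes, which are not independent of each other, was 0.850 ± 0.00532 with kidney, 0.841 with thymus, 0.829 with lung, 0.812 with heart, 0.794 ± 0.00634 with spleen and 0.793 ± 0.00696 with liver. Spleen and liver did not differ beyond their spread over animals. Without the 119 genes the values were 0.869 ± 0.00503, 0.860, 0.849, 0.833, 0.813 ± 0.00621 and 0.812 ± 0.0069 in the same order. The choice of these genes, each far higher in pancreas than in every other library, favours a rise with all of them. They are also few of the 23602, so an unchanged order says little. On the linear scale, on which few genes decide the value, r was at most 0.0827 with all genes. Without the 119 genes its mean was 0.551 with spleen, 0.540 with kidney, 0.445 with lung, 0.360 with thymus, 0.121 with heart and 0.0841 with liver. Kidney was thus not first on this scale, with SDs over animals of 0.148 in spleen and 0.116 in kidney. In each tissue with replicates the library of F9150, the animal that gave the pancreas, had the highest r: 0.803 in liver against 0.784 to 0.798 in the other animals, 0.857 in kidney against 0.845 to 0.853, and 0.803 in spleen against 0.786 to 0.795. Thymus also came from F9150, and heart and lung came from F6849. For the order of thymus, lung and heart, tissue and animal therefore cannot be told apart.

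**Figure D4:**
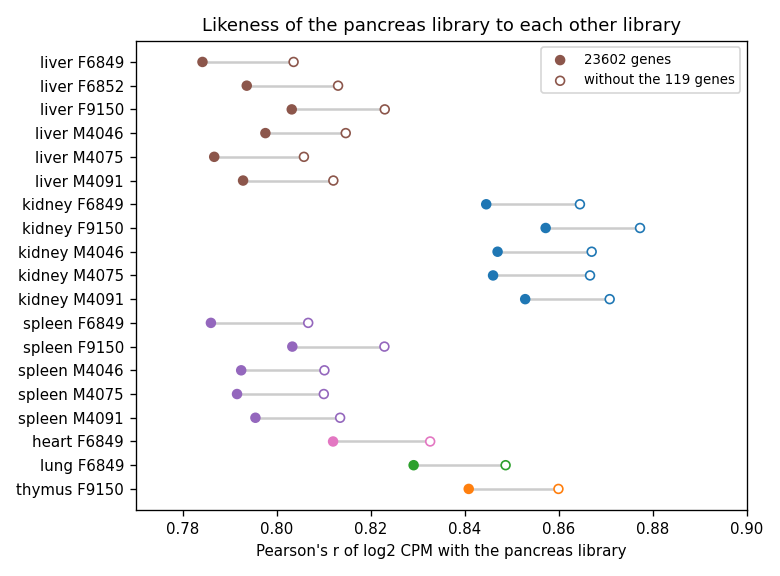
Pearson's r of log2 scaled CPM between the pancreas library and each other library, 1 row per library, over 23602 genes (filled) and without the 119 genes high in pancreas (open). The axis starts at 0.77. All values shift up by about the same amount, the kidneys and thymus stay highest and the livers and spleens lowest. The choice of the 119 genes favours such a shift.

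Among the genes left, the most abundant shared ones stood out in pancreas. A set of 44 genes had at least 300 scaled CPM in each of the other 19 libraries, a limit chosen after the data were seen. In pancreas 29 of them were above every other library, 26 by at least 2 times and 20 by 3 to 6 times, 15 were not above the highest and 2 were below every other library. The median ratio to the highest other library was 2.54, over a range of 0.0335 to 5.70. They held 23.2% of the remaining counts of pancreas, against 8.59% ± 0.604 in spleen, 6.61% in thymus, 5.88% in lung, 5.63% ± 0.581 in kidney, 4.81% in heart and 3.46% ± 0.581 in liver. Of all pancreas counts they held 9.87%. The removal took out genes high in pancreas and kept those high in other tissues, so it raised the share mainly in pancreas. Sets found by the same rule for heart, lung and thymus, without pancreas, had 46, 44 and 48 genes, of which 2, 0 and 4 were above every other library.

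The 20 genes at 3 to 6 times lay at 2391 to 16648 scaled CPM in pancreas and at 301 to 4161 in the other libraries, and 19 of them were among the 50 most abundant genes of pancreas. Their choice by this ratio fixes that pancreas is the highest, and a spleen library was next for 11 of them. The sizes of these ratios rest on the composition factors: with library sizes alone, 21 of the 44 genes were above every other library, 1 by at least 2 times, the median ratio was 0.968, and the median of the 20 genes went from 4.09 to 1.44.

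**Figure D5:**
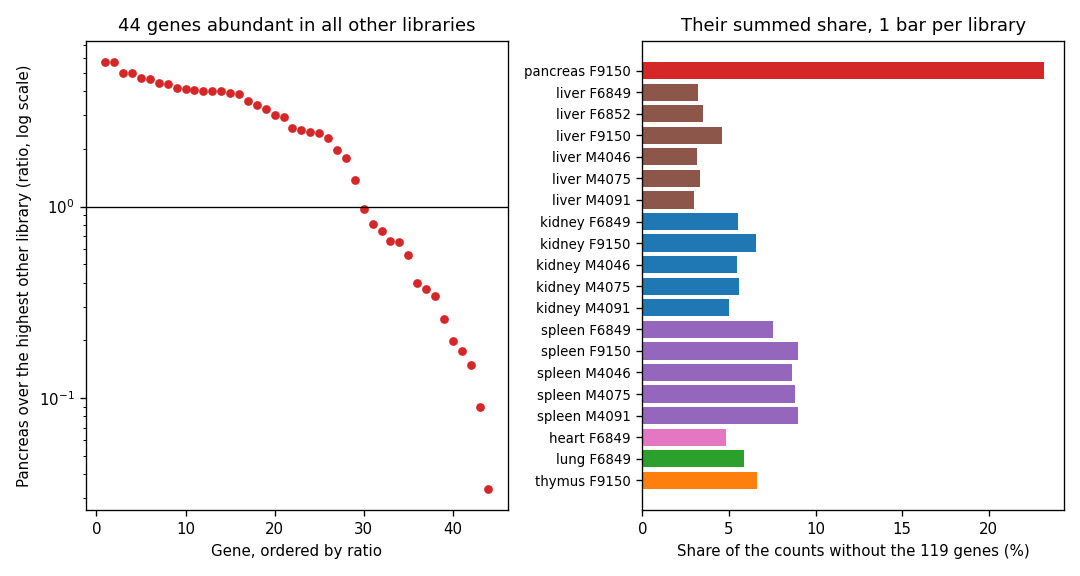
Left, ratio of pancreas to the highest other library (log scale) for the 44 genes of at least 300 scaled CPM in each of the other 19 libraries, ordered by ratio, with a line at 1. Right, their summed share of the counts left without the 119 genes (percent), 1 bar per library. Of the genes 29 lie above the line, and the bar of pancreas (23.2%) is longer than the 2.97% to 8.97% of the others. Of all pancreas counts, the 119 genes included, the 44 genes held 9.87%.

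Genes of like level in the other tissues were also examined in pancreas. The 500 genes with the smallest SD of log2 level over the 6 other tissue means, chosen without pancreas among genes of at least 10 scaled CPM in all 19 libraries, had a median difference of pancreas from the mean of the tissues of 0.09 on the log2 scale. The middle 50% of them ran from -0.16 to 0.39. The other libraries had medians of -0.10 to 0.15. With library sizes alone the pancreas median was -1.20. A median near 0 follows from the TMM scaling, which centres such genes, and is no check of it. In pancreas 476 of the 500 genes were within 1 log2 unit of the mean, 24 were above and 0 below, and 157 lay outside the range of the other 19 libraries, 107 above it and 50 below. Their SD over genes was 0.47 in pancreas and 0.14 to 0.29 in the libraries used to choose them, where the choice itself favours a small SD.

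Among genes with any count in pancreas and not among the 119, those with the highest mean over the other tissues were mostly far below that mean in pancreas. For 68 such genes with a mean of at least 1000 scaled CPM over the other tissues, the median log2 difference of pancreas from that mean was -5.49, against -0.67 for 1712 genes of 100 to 1000, -0.21 for 8802 genes of 10 to 100 and -0.45 for 5792 genes of 1 to 10. The same differences for the most abundant class were -3.85 in heart, -2.72 in lung and -7.00 in thymus, each against its own other tissues and without its own high genes, so pancreas lay inside the range of the tissues with 1 library. A single tissue can carry such a mean, and genes high in the tissue examined were left out, so the choice favours a low median in any tissue. Of the 44 genes abundant in each other library, 29 were above every other library in pancreas and 15 were not.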

How the data were processed

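Polyadenylated RNA of woodchuck tissues was sequenced as paired reads (HiSeq2500, TruSeq RNA v2 kit). The labels give a pair of amounts of input RNA and do not say which library had which. The authors used the gem-tools rna-mapper for alignment and gemtools for quantification on the Monax4B annotation, and deposited read counts, whole numbers without normalization, for 30973 genes and 20 libraries. The submitters' processing notes name CASAVA 1.8.4 and FastQC 0.11.5. The strand setting is not given in the sources used here. Of the counts above 0 in pancreas, 86.5% were even (85.1% to 86.5% over the libraries), and both reads of a pair may each have been counted.

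TMM factors were computed with edgeR 4.0.16 in R 4.3.3 over the 23602 genes past filterByExpr. Levels and figures were computed in Python 3.11.15 with pandas 2.3.3 and matplotlib 3.10.9. Genes were called high or low by the limits of size given with the results (8 times, 10 CPM, a floor of 3 counts), with no test, since pancreas had 1 library. The call rules were run on simulated data with planted changes far beyond 8 times and no differences between the other tissues. Scaling there used the genes left unchanged. The simulation therefore checks the code only and does not bear on genes near the limit or on the TMM scaling. Log2 CPM for r used a prior count of 2. Genes named are at most 2 per comparison and direction: the largest ratios (for genes high against all libraries, among those of at least 100 CPM), the 2 most abundant genes of pancreas, and the leading gene left after removal. The alternatives were RLE factors, library sizes alone, TMM factors without the high genes, other limits, minima and floors, tissue means, the same animal alone, other correlations, and each animal or replicate left out. The genes, lists and rules were chosen with earlier results of these data known. Library totals were 59487004 to 140252555 counts.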

Additional observations from a re-analysis of the deposited data

Results flagged for a closer look

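In 1 of the 15 sets of libraries of a tissue examined for a value far from the others, a library stood apart, and chance alone gives about 1 in 20. The measure was the count of 65 genes high in pancreas with a mean under 1 scaled CPM in every other tissue, per 1000000 of their counts in pancreas. In the liver of M4046 it was 12.4 (425 counts), while the other 5 livers had 2.11 to 5.83 (72 to 199 counts). The measure is not adjusted for depth, and the liver of M4046 held 134403756 counts, against 82874390 to 140252555 in the others. In scaled CPM the same genes summed to 6.08 in the liver of M4046 and to 1.45 to 3.30 in the others. Whether it stands apart on that scale was not examined. In the kidneys and the spleens no library stood apart by the same measure, with highest values of 33.4 in the kidney of F6849 and 38.5 in the spleen of M4046.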

How the results depend on the processing

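With 1 pancreas library from 1 animal, the spread of pancreas itself is unknown, and all counts describe that library. No paired analysis was possible because the results for pancreas are values of 1 library that come from no test. Comparisons within the animal F9150 are given below as values. The intervals of the shares reach at most 0.0107 percentage points to either side if each count is taken as independent. They leave out the spread between animals.

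Genes high against every other library numbered 119 and, under alternatives, 73 with library sizes alone, 193 at 4 times, 226 with no minimum level, 64 at 100 CPM and 184 against the same animal only; without each animal they were 119 to 147. Genes low against every other library numbered 2 and became 37 with library sizes alone, 25 at 4 times, 0 at 16 times, 6 with no minimum, 0 at a minimum of 100 CPM and 7 against the same animal only. Without each animal they were 2 to 26, with 26 when the other libraries of F9150, thymus included, were left out.

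Genes high against liver, kidney, spleen, heart, lung and thymus were, in that order, 291, 116, 229, 310, 157 and 307 with library sizes alone, 798, 599, 869, 1178, 840 and 1203 at 4 times, and 1034, 640, 1118, 1466, 1172 and 1621 with no minimum. Genes low with library sizes alone were 1288 against kidney, 1650 against spleen, 1626 against heart, 2366 against lung and 1710 against thymus. At 4 times they were 1161 against liver, 753, 1475, 1433 and 1387 against kidney, heart, lung and thymus, and with no minimum 714, 1518, 2094 and 1272 against those 4.

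The share of the most abundant genes was 13.5% for 1, 65.1% for 50, 70.7% for 100 and 83.3% for 1000, and that of the high genes 63.9% at 4 times and 57.2% at 16 times. The effective number of genes was 2267 without the high genes, an alternative added after seeing the data. Genes found were 16921 after thinning and 21013 at 1 count or more. The composition factor was 1.04 without the high genes and 0.891 without the 10 most abundant.

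The mean r with liver, kidney, spleen, heart, lung and thymus was 0.818, 0.867, 0.807, 0.829, 0.851 and 0.855 as Spearman's rho, 0.779, 0.835, 0.778, 0.799, 0.815 and 0.828 with a prior count of 0.5, 0.841, 0.887, 0.845, 0.857, 0.872 and 0.878 with no filter, 0.812, 0.869, 0.813, 0.833, 0.849 and 0.860 without the high genes, and 0.815, 0.863, 0.802, 0.828, 0.842 and 0.851 without the 100 most abundant genes of any library. Within F9150 it was 0.803, 0.857 and 0.803 with liver, kidney and spleen.

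The median level of restricted genes of these 6 tissues was 0.0161%, 0.101%, 0.116%, 0.109%, 0.265% and 0.0186% with library sizes alone and 0.344%, 0.838%, 0.662%, 0.628%, 1.51% and 3.44% at 4 times, and 0.280% for thymus with RLE factors. The median of the stable genes was -1.20 with library sizes alone. The other counts of genes high or low under alternatives were within 1.5 times of those reported. The inverse Simpson index of 22.6, in place of the effective number of 224, is a different quantity. Where a value moved, the cause was not tested beyond what the alternative itself changes.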

Other observations

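In pancreas 77 genes were counted and had 0 counts in all 19 other libraries. Of these, 21 had at least 10 counts in pancreas, and the highest had 2124. Among the genes past filterByExpr, 9.54% had their highest level of the 20 libraries in pancreas and 7.30% their lowest. The same shares were 11.9% and 7.68% in heart, 9.57% and 5.92% in thymus and 6.70% and 2.23% in lung. After scaling, 184 of the 6002 genes with at least 10 scaled CPM in each other library were at 2 times or more of the highest of them in pancreas, and 43 were at or below 0.5 times the lowest.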
